A study of Mus musculus with 6 samples.

Results

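The genes described here encode the subunits of voltage-gated sodium and calcium channels. They were selected by a rule on symbol and annotation, which was set with earlier results of these data known. The rule took protein-coding genes named Scn with a number and a or b, Cacna1 with a letter, Cacna2d1 to Cacna2d4 and Cacnb1 to Cacnb4. This gave 31 of the 38087 genes measured. The 31 genes were 9 sodium channel alpha subunits, 4 sodium channel beta subunits, 10 calcium channel alpha1 subunits, 4 alpha2delta subunits and 4 calcium channel beta subunits. Scn2a, the sodium channel alpha subunit of axons and dendrites in the forebrain, carries the older symbol Scn2a1 in the table and was therefore outside the rule, so its values are given beside those of the members.

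RNA was sequenced from the brains of 3 wild-type (WT) mice and 3 Sgo1-/+ mice, which carry 1 functional copy of Shugoshin 1, a protector of cohesin in mitosis. All 6 were C57BL6 mice of 24 months, with 1 library per mouse. The tissue was cerebrum with cortex and hippocampus, by the study's methods taken without olfactory bulb, cerebellum and medulla. Each group held 1 male, which was WT replicate 1 in the first and Sgo1-/+ replicate 2 in the second, and the WT libraries came from sequencing run 258 and the Sgo1-/+ libraries from run 259, so genotype and run cannot be told apart.

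Voltage-gated sodium channels open within a fraction of a millisecond of depolarization and carry the upstroke of the action potential. Each is built on 1 alpha subunit, which forms the pore, and beta subunits, which set its gating and its attachment to other membrane proteins. Voltage-gated calcium channels turn the same depolarization into calcium entry, which releases transmitter at presynaptic terminals, drives signals to the nucleus and shapes burst firing. Their alpha1 subunit forms the pore and defines the L, P/Q, N, R and T types, while alpha2delta and beta subunits bring the channel to the membrane.

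Total estimated counts lay between 11123917 and 12505561 per library. Normalized counts are these counts scaled to a common library size after TMM (trimmed mean of M values) correction. Sgo1 itself, listed as Sgol1, had 0, 7 and 0 estimated counts in the WT libraries and 4, 2 and 0 in the Sgo1-/+ libraries, too few to check the genotype, since a count of 0 allows up to 3. WT replicate 1 stood apart from the other 5 libraries. Its mean correlation with them across genes was 0.935, against 0.967 to 0.970 for the others. The summed normalized count of 9 cerebellar granule cell markers was 17550 in WT replicate 1 and 931 to 1797 in the other 5 libraries, and that of 12 brain stem markers was 4477 against 38.1 to 77.1, with every marker of both lists highest in that library. The 9 markers of Purkinje cells summed to 30179 there and to 10213 to 13114 elsewhere. Markers of cortex summed to 4821 against 14497 to 18238 and those of striatum to 4468 against 15244 to 36241. Neuron markers summed to 68505 in WT replicate 1 and to 74416 to 97169 in the others, but the list was split. Of its 6 genes 3 were lowest in WT replicate 1, while Stmn2 and Nefl were highest there. The other 5 libraries were not uniform in regional markers. Thalamus markers summed to 5598 in Sgo1-/+ replicate 3, to 3917 in WT replicate 1 and to 1187 to 1684 in the rest. Of the 8 hippocampus markers 7 were highest in Sgo1-/+ replicate 3. The marker lists were chosen with earlier results of these data known, so agreement among their genes is not independent support. Slc6a5 of the brain stem list, Pcp2 and Ppp1r17 of the Purkinje cell list and Shisa8 of the olfactory bulb list are among the paper's differential genes. Since the samples were pieces of whole tissue, fewer cells of a type and less RNA per cell cannot be told apart in any value given here. Results that rest on WT replicate 1 are given with and without it.

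Sodium and calcium channel beta subunits led the order of levels, though not every auxiliary subunit stood high. Levels were compared between genes as normalized CPM (counts scaled to a common total) per kb of merged exon. Scn4b, a sodium channel beta subunit, was at 96.6 ± 30.2 (SD, n = 6 libraries), with 68.1, 64.7 and 104 in WT and 110, 145 and 87.4 in Sgo1-/+. Scn2b, which is joined to alpha subunits by a disulfide bond, was at 59.6 ± 8.94. The leading calcium channel beta subunits were Cacnb3 at 47.7 ± 18.8 and Cacnb4 at 36.4 ± 5.26. Cacnb3 had levels of 12, 50.5 and 67.8 in WT and 52.2, 55.1 and 48.5 in Sgo1-/+, so its mean was lowered by WT replicate 1. The auxiliary subunits Cacnb2, at 4.18 ± 0.562, and Cacna2d4, at 0.267 ± 0.107, stood far lower.

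Among the pores, the sodium channel alpha subunits Scn8a and Scn1a stood at nearly the same level per length, 24.1 ± 3.31 and 22.3 ± 3.79, or 24.8 ± 3.07 and 20.9 ± 1.8 without WT replicate 1. Scn8a, the alpha subunit concentrated at the axon initial segment and nodes of Ranvier, had 20.3, 21 and 27.9 in WT and 22.7, 24.7 and 27.8 in Sgo1-/+. Scn1a is best known from fast-spiking inhibitory neurons. Scn2a1, outside the rule, was at 28.6 ± 6.5. The highest calcium channel alpha1 subunit over the 6 libraries was Cacna1a, the P/Q-type pore of presynaptic terminals, at 13.2 ± 2.53, with 17.0, 10.1 and 14.3 in WT and 11, 12.3 and 14.3 in Sgo1-/+. Cacna1b, the N-type pore, followed at 12.9 ± 3.18, and Cacna1i, a T-type pore, at 12.1 ± 2.52. This order rested on WT replicate 1 and on the length used. Without WT replicate 1 Cacna1b was at 14.1 ± 1.48 (SD, n = 5 libraries), Cacna1i at 13 ± 1.41 and Cacna1a at 12.4 ± 1.91. Per kb of the longest transcript, over the 6 libraries, Cacna1a was at 19 ± 3.65, Cacna1e at 15.2 ± 4.81, Cacna1b at 13.2 ± 3.25 and Cacna1i at 12.2 ± 2.54. Cacna2d1, a binding site of gabapentin, led the alpha2delta subunits at 17.1 ± 5.45, with 6.62, 18.8 and 22.7 in WT and 18.0, 18.7 and 17.9 in Sgo1-/+, ahead of Cacna2d3 at 13.7. This lead depended on the length used: per kb of the longest transcript Cacna2d3 was at 32.4 ± 8.81 and Cacna2d1 at 28.6 ± 9.1.

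At the other end were genes known from tissues other than brain. Scn4a and Cacna1s, the pores of skeletal muscle, reached 0.0157 ± 0.0121 and 0.195 ± 0.0526, and Cacna1f, the L-type pore of the retina, 0.044 ± 0.0102. The summed count of 9 skeletal muscle markers was 206 to 353 over the 6 libraries, and Ckm among them had at most 5.07 normalized counts. Scn10a and Scn11a, known from sensory neurons, were at 0.27 ± 0.353 and 0.0795 ± 0.0369. The order was not sharp: of the 28 pairs of neighbours among the 29 genes described, 26 had ranges over the 6 libraries that overlapped. The 2 exceptions were Cacnb4 above Scn8a and Cacna1c above Scn7a, an alpha subunit involved in sodium sensing.

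**Figure D1:**
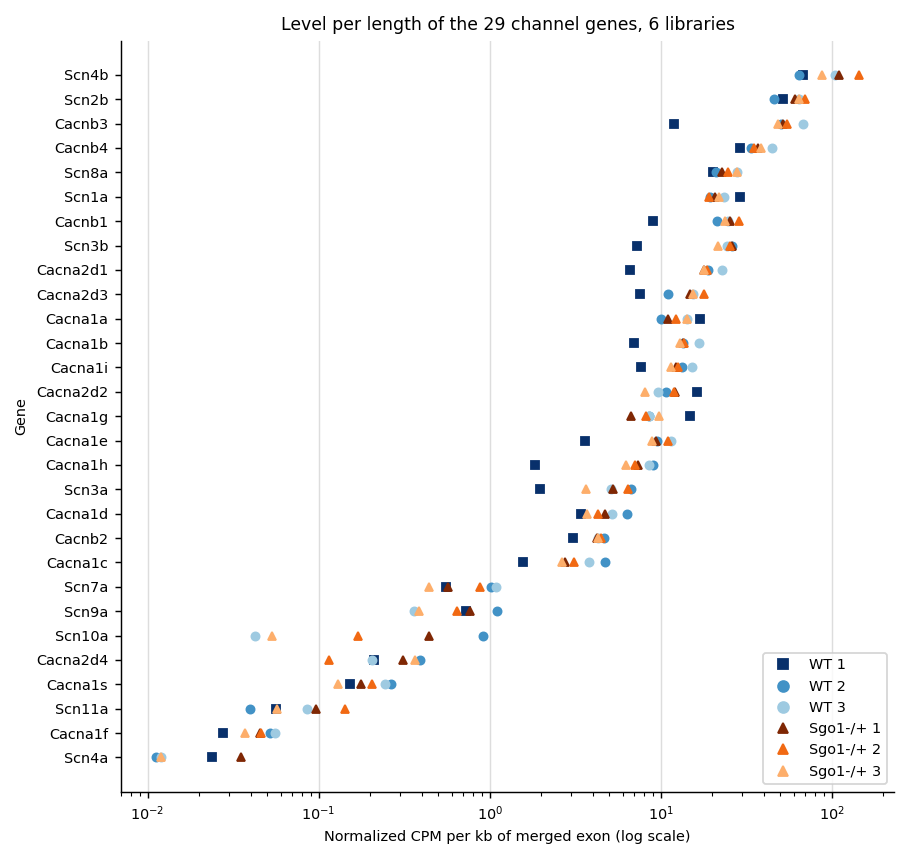
Level per length of 29 channel genes on a log axis, in normalized CPM per kb of merged exon, with 1 point per library; levels of 0 (Scn10a in WT replicate 1, Scn4a in Sgo1-/+ replicate 2) are not drawn. Scn4b lies at 64.7 to 145 and Scn4a at 0.0351 or below, and the square of WT replicate 1 lies apart from the other points in many rows.

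No channel gene was called different between Sgo1-/+ and WT, which with 3 libraries per group does not show equal levels. The WT spread includes WT replicate 1. After edgeR's default filter on low counts 28 of the 31 genes were tested, with Cacna1f, Scn4a and Scn11a removed. With edgeR's quasi-likelihood test and Benjamini-Hochberg adjustment over 16337 genes, 0 of the 28 had an adjusted p under 0.05, as had 0.0% of all genes. At an unadjusted p under 0.05 the count was also 0 of 28, against 2.04% of all genes tested, and DESeq2 and limma likewise gave 0 of 28 at either threshold. The groups overlapped in all 28 genes, whereas they did not overlap in 6.81% of all genes tested. Of the 28 log2 fold changes 16 were above 0 and 12 below, with a median of 0.08, and the median over all tested genes was -0.00. The intervals were wide for some genes and narrow for others, as the standard error ranged from 0.153 for Scn2b to 1.42 for Scn10a.

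With all 6 libraries the subunit classes did not share a direction. The sodium channel beta subunits Scn2b, Scn3b and Scn4b had log2 fold changes of 0.26, 0.34 and 0.54, and these were above 0 also in all 4 calcium channel beta subunits, from 0.05 to 0.50. Of the 7 sodium channel alpha subunits tested 5 were below 0, and of the 9 calcium channel alpha1 subunits 5 were below and 4 above. Without WT replicate 1, 3 of the 4 calcium channel beta subunits were below 0, with a range of -0.19 to 0.17, Scn3b turned to -0.05, and 8 of the 9 alpha1 subunits were below 0. None of the differences with all libraries passed the test, and the smallest unadjusted p was 0.0748, for Scn4b.

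Scn4b, whose product takes part in the resurgent sodium current of fast-firing neurons and which was picked once its values were known, had normalized counts of 4093, 3889 and 6241 in WT and 6629, 8749 and 5258 in Sgo1-/+. The male Sgo1-/+ replicate 2 was highest, and WT replicate 3 lay above Sgo1-/+ replicate 3. The log2 fold change was 0.54 (95% confidence interval -0.07 to 1.14, adjusted p = 0.9999 by edgeR). The summed striatum markers, 4468, 19053 and 24408 in WT and 30428, 36241 and 15244 in Sgo1-/+, were likewise highest in Sgo1-/+ replicate 2, where all 10 genes of the list peaked. Their part in the values of Scn4b was not tested.

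For Scn8a and Cacna1a, the highest pores of their classes among the members described, the differences were small and bounded. Scn2a1, outside the rule, stood above Scn8a in mean level per length over the 6 libraries. Scn8a had a log2 fold change of 0.12 (95% interval -0.27 to 0.51) from 3861, 3991 and 5304 in WT and 4322, 4698 and 5298 in Sgo1-/+. The groups overlapped over most of their range. Cacna1a gave -0.14 (-0.63 to 0.35) from 2340, 1390 and 1973 in WT and 1512, 1699 and 1967 in Sgo1-/+. For both genes a difference of 2-fold in either direction lay outside the 95% interval.

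For Cacnb3 and Cacna2d1 it did not, and WT replicate 1 was far from the other 5 libraries in both. Cacnb3, a beta subunit carried by N-type and L-type channels, had normalized counts of 581, 2446 and 3283 in WT and 2527, 2668 and 2347 in Sgo1-/+. Only the library from WT replicate 1 fell outside the range of 2347 to 3283. The log2 fold change was 0.26 (-1.01 to 1.53), and -0.19 (-0.52 to 0.14) without WT replicate 1. Cacna2d1 had 992, 2812 and 3407 in WT and 2703, 2807 and 2688 in Sgo1-/+. Its log2 fold change of 0.18 (-0.77 to 1.14) likewise turned to -0.19 (-0.45 to 0.07) without WT replicate 1.

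Scn10a was the member with the most uneven counts. It had 0, 87.6 and 4.06 normalized counts in WT and 42.7, 16.2 and 5.12 in Sgo1-/+, with the highest library 8.22 times the median of the 6. High and low libraries occurred in both groups, and the log2 fold change of -0.52 had an interval of -3.88 to 2.84.

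**Figure D2:**
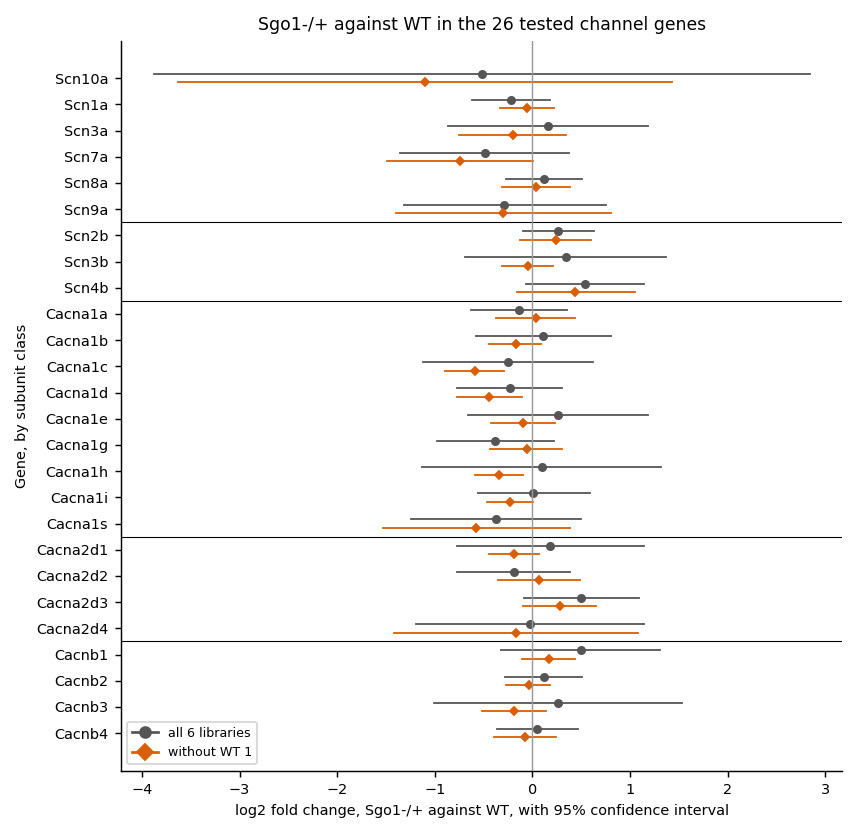
Log2 fold change of Sgo1-/+ against WT with its 95% confidence interval from edgeR's quasi-likelihood fit, for 26 tested channel genes in order of subunit class, with all 6 libraries (grey circles) and without WT replicate 1 (orange diamonds). All intervals of the 6 libraries include 0, and without WT replicate 1 those of Cacna1c, Cacna1d and Cacna1h lie below 0.

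WT replicate 1 was low for most channel genes. It had the lowest normalized count of the 6 libraries in 17 of the 28 tested genes (60.7%), against 30.4% of all genes tested, and at most 0.5 times the median of the other 5 libraries in 10 of 28 (35.7%), against 8.53%. No other library was lowest in more than 4 of the 28. It was highest in 4 of 28 (14.3%), against 28.0% of all genes. The low genes included a member of every class: Cacnb3 stood at 23% of the median of the other 5 libraries, Cacna1h, a T-type pore, at 24.9%, Scn3b at 28.5%, Cacna2d1 at 35.3%, Cacnb1 at 36%, Scn3a, an alpha subunit best known from development, at 37.1%, and Cacna1e, the R-type pore, at 38.1%. Scn2a1, outside the rule, was at 52.2%.

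The 4 genes highest in WT replicate 1 were Cacna1g, a T-type pore, at 173% of the median of the other 5, Cacna2d2, an alpha2delta subunit known from Purkinje cells, at 152%, Scn1a at 141% and Cacna1a at 138%. Cacna1a, Cacna1g and Cacna2d2 are known as the pores and auxiliary subunit of cerebellar Purkinje cells. All 9 Purkinje cell markers were also highest in this library. The part of the marker genes in these values was not tested.

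**Figure D3:**
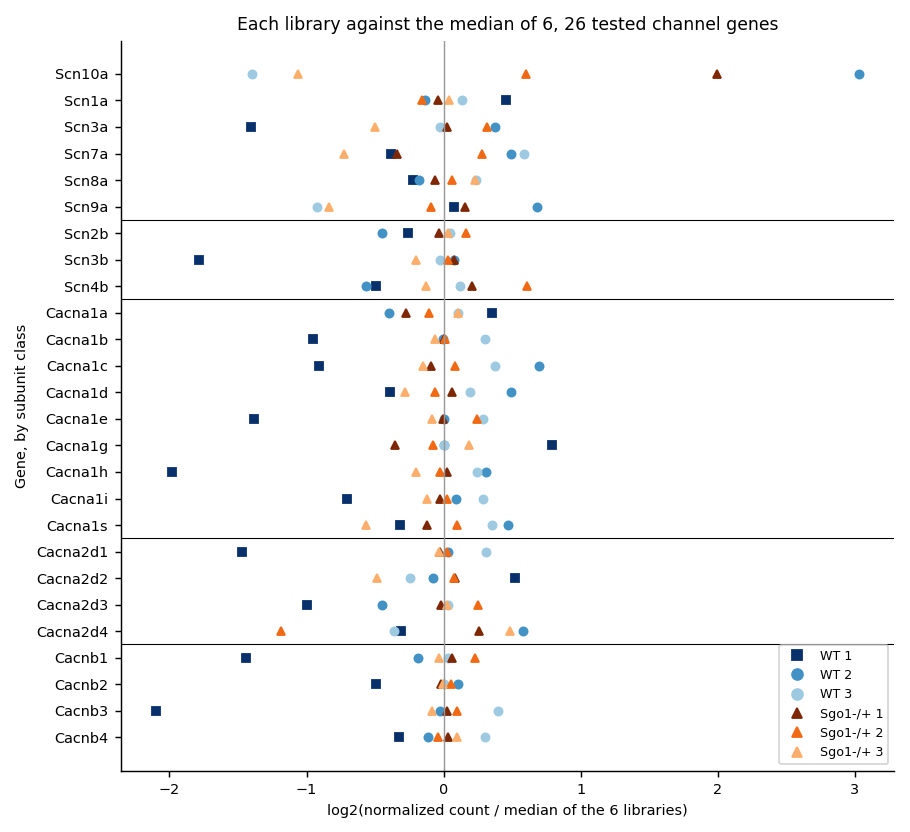
Log2 ratio of each library's normalized count to the median of the 6 libraries, for 26 tested channel genes grouped by subunit class (top to bottom: sodium alpha, sodium beta, calcium alpha1, alpha2delta, calcium beta); the count of 0 of Scn10a in WT replicate 1 is not drawn. WT replicate 1 (squares) is lowest in 16 of them and highest in 4.

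Shares within a class also set WT replicate 1 apart for several genes. Shares were taken of the summed level per length of the described genes of a class in each library. Cacna1a made up 29.7% of the calcium channel alpha1 level in WT replicate 1 and 13.4% to 20.3% in the other 5 libraries, and Cacna1g 26% against 9.89% to 13.9%. Cacna1h was low there with 3.2% against 8.95% to 11.9%. Cacna2d2 took 53.1% of the alpha2delta level in WT replicate 1 and 19.4% to 26.6% elsewhere. Cacnb4, the beta subunit most associated with the cerebellum, took 54.6% of the beta level against 28.6% to 33.6%, and Cacnb3 22.6% against 42% to 47.9%. The normalized count of Cacnb4 itself was lowest in WT replicate 1, at 3134 against 3634 to 4830, so its larger share went with still lower values of the other beta subunits. The share of Scn4b among the sodium channel beta subunits described, 53.4%, lay within the 47.3% to 60.4% of the other libraries. Scn1a reached 55.4% of the sodium channel alpha level against 36.7% to 41%, or 42.4% against 22.8% to 27.1% with Scn2a1 counted in the class.

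Between the genotypes 2 of the 29 shares did not overlap, and without WT replicate 1 the count was 7, with Cacna1c, Cacna1s, Cacna2d1, Cacnb3 and Scn7a added. Cacnb1 made up 16.9%, 19.5% and 17.6% of the calcium channel beta level in WT and 21.4%, 23.2% and 20.7% in Sgo1-/+. Cacna2d3, an alpha2delta subunit, made up 24.7%, 27.1% and 32.2% of its class in WT and 32.9%, 36.9% and 36.8% in Sgo1-/+. In both, every Sgo1-/+ library lay above every WT library, which 3 against 3 libraries can bring no lower than an exact two-sided permutation p of 0.1. Of all genes tested, 6.81% had groups that did not overlap in normalized count, and 17.9% without WT replicate 1. The 2 of 29 shares lay near the first percentage. Both percentages are for counts, whereas shares within a class are tied together, since a larger share of a gene lowers the rest. The normalized counts of Cacnb1 and Cacna2d3 overlapped between the groups, with 490, 1172 and 1361 in WT and 1392, 1566 and 1304 in Sgo1-/+ for Cacnb1.

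**Figure D4:**
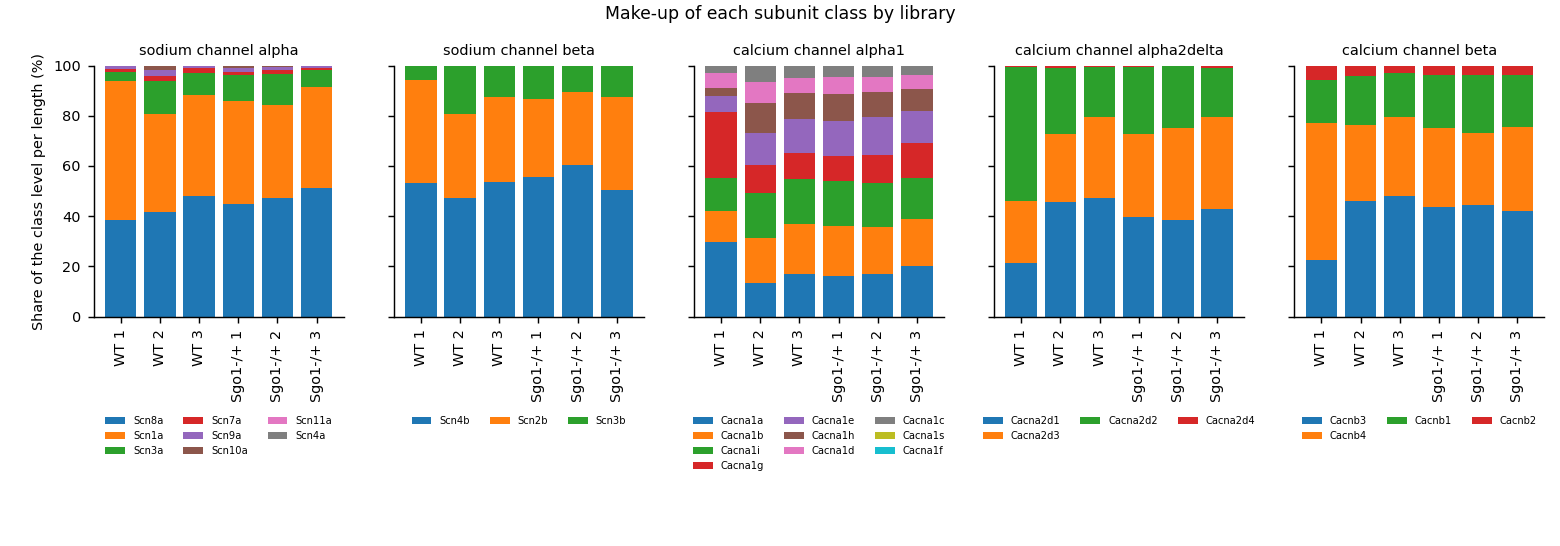
Share of each gene in the summed level per length of the described genes of its subunit class, in percent, with 1 stacked bar per library and 1 panel per class. In WT replicate 1 Cacna1a, Cacna1g, Cacna2d2, Cacnb4 and Scn1a take larger shares than in any of the other 5 libraries, which resemble each other.

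Without WT replicate 1, 3 genes had an unadjusted p under 0.05, and all were calcium channel pores lower in Sgo1-/+. This was 3 of 28, against 3.77% of all 16617 genes then tested, or 1.91% when only lower genes were counted, and none had an adjusted p under 0.05. Of the 28 log2 fold changes 20 were below 0, with a median of -0.13, beside 0.01 over all genes. The direction of 13 genes, Scn2a1 among them, turned when this library was left out.

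Cacna1c (ENSMUSG00000051331, chr6:118592319-118780324 in mm10, minus strand) encodes the L-type pore that couples depolarization to gene transcription in neurons. Its normalized counts were 399, 1212 and 972 in WT and 701, 794 and 674 in Sgo1-/+. WT replicates 2 and 3 lay above every Sgo1-/+ library and WT replicate 1 below. The log2 fold change was -0.25 (95% interval -1.12 to 0.62) with all libraries and -0.59 (standard error 0.13, unadjusted p = 0.00227, adjusted p = 0.9995 by edgeR) without WT replicate 1.

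Cacna1d (ENSMUSG00000015968, chr14:30039949-30491156, minus strand), the L-type pore that opens at more negative potentials, had 525, 966 and 787 in WT and 716, 658 and 565 in Sgo1-/+. Again only WT replicate 1 lay below the Sgo1-/+ range. The log2 fold change moved from -0.23 (-0.77 to 0.30) to -0.44 (standard error 0.14, unadjusted p = 0.0156, adjusted p = 0.9995 by edgeR). Cacna1h (ENSMUSG00000024112, chr17:25374285-25433783, minus strand) had 216, 1056 and 1010 in WT and 865, 836 and 741 in Sgo1-/+. Its log2 fold change turned from 0.10 (-1.13 to 1.32) to -0.34 (standard error 0.105, unadjusted p = 0.0128, adjusted p = 0.9995 by edgeR). Exons of Cacna1d and Cacna1h overlap those of Chdh and Tpsg1 on the other strand, and whether the counting used strand is not given in the sources used here.

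Markers of the olfactory bulb were high in WT replicates 2 and 3 as well, where all 7 genes of the list lay above every Sgo1-/+ library. They summed to 2799, 3277 and 2478 in WT and 1702, 735 and 370 in Sgo1-/+. In WT replicate 1 Calb2, which other neurons also express, made up 2346 of the sum. Without Calb2 the other 6 markers summed to 452, 2048 and 1744 in WT and 992, 257 and 134 in Sgo1-/+, and 2 of the 7 were higher in all 3 WT libraries. Tbx21 and Eomes among them, transcription factors of its projection neurons, had 2.03 and 8.11 normalized counts in Sgo1-/+ replicate 2. Their part in the lower values of Cacna1c, Cacna1d and Cacna1h was not tested.

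**Figure D5:**
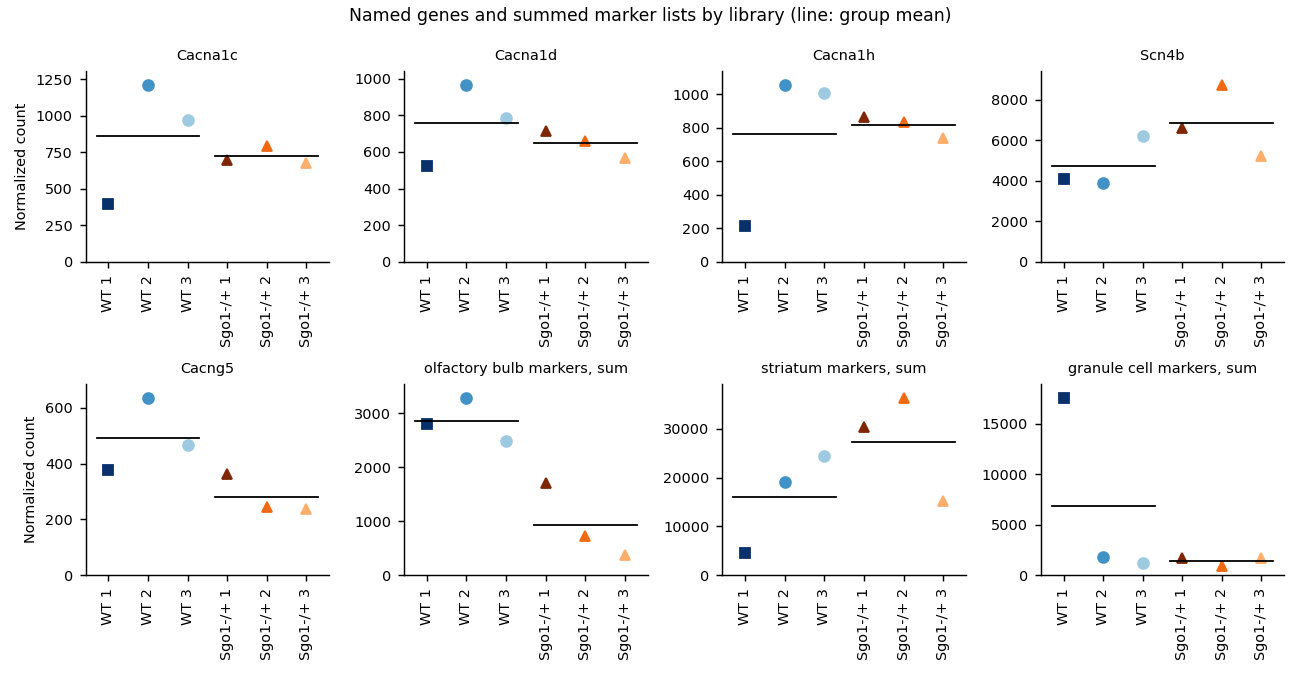
Normalized counts by library of Cacna1c, Cacna1d, Cacna1h, Scn4b and Cacng5, and summed normalized counts of the olfactory bulb, striatum and granule cell marker lists, on linear axes from 0; horizontal lines are group means. Cacng5 and the olfactory bulb sum are higher in all 3 WT libraries, the latter in WT replicate 1 through Calb2 (2346 of 2799), and WT replicate 1 is lowest for the 3 calcium channel pores.

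Leaving out WT replicate 3 instead gave 3 other genes, all higher in Sgo1-/+, against 6.21% of all genes then tested, or 3.15% higher. They were Cacna2d3 (log2 fold change 0.78, unadjusted p = 0.00832 by edgeR), Scn4b (0.79, 0.0162) and Scn2b (0.41, 0.0206), each with an adjusted p of 0.764. Their WT baseline was then WT replicates 1 and 2, which were both below WT replicate 3 in each of the 3 genes. Without Sgo1-/+ replicate 3, 1 of 28 had an unadjusted p under 0.05, Scn4b, with a log2 fold change above 0, against 1.51% of all genes, or 0.654% higher. Cacna2d3, Scn2b and Cacnb1 were also picked once their values were known. Scn4b thus had an unadjusted p under 0.05 in both of these fits, with an adjusted p of 0.764 and 0.9997 by edgeR. The genes with an unadjusted p under 0.05 without WT replicate 1 were others, and they went in the opposite direction.

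Promoters of some of the genes named in these comparisons are shown to let their base composition be read beside the values. RefSeq's table (GRCm38.p6) held 32 starts for 23 of the 31 genes, with none for Cacna1h. The 250 bases before a start are printed for Cacna1c, Cacna1d and Cacna2d3, at starts where this stretch holds no annotated exon, in the direction of transcription, with each GC box (GGGCGG, or CCGCCC on the other strand, overlapping matches counted) in capitals. Cacna1c lies at chr6:118757975-118758224, Cacna1d at chr14:30353487-30353736 and Cacna2d3 at chr14:29721865-29722114, all on the minus strand.
Cacna1c: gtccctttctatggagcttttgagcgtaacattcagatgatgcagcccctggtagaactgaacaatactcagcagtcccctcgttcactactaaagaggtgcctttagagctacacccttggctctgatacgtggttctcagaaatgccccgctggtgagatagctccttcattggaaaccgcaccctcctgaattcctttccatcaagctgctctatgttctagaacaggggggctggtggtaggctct
Cacna1d: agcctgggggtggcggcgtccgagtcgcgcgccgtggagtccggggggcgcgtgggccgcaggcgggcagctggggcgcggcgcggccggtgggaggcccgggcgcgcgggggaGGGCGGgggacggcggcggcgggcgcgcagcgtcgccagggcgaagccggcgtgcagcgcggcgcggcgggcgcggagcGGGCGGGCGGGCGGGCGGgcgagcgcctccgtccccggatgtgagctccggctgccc
Cacna2d3: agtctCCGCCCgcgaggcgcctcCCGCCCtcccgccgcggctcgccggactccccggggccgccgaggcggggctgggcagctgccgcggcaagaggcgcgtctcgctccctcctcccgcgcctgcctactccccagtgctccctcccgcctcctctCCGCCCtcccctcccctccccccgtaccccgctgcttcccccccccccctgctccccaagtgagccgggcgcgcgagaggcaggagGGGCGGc

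The printed stretches of Cacna1c and Cacna1d lie inside the gene spans given above, at internal starts. The Cacna1c stretch, 1 of 3 starts of this gene, held no GC box and had a GC content of 50.4%. Those of Cacna1d and Cacna2d3 held 5 and 4 GC boxes at 86.4% and 80.0% GC. The starts of a gene differed as much: the other starts of Cacna1c, whose stretches hold annotated exon, had 0 and 6 GC boxes at 51.6% and 82.8% GC, and the other start of Cacna1d had 0 at 39.6%. Over the 32 channel starts 13 held a GC box, 1 in each of 13 genes, against 32.7% of all 32851 starts of the same length. A TATA box (TATAAA) was found at 1 of the 32, at another start of Cacna1d, against 12.4%. The binding motif of EGR factors (GCGTGGGCG), which are induced by neuronal activity, occurred at 1, that of Scn7a, against 0.536%, and the cAMP response element (TGACGTCA) at 0, against 1.55%. All were searched on both strands, and a match here is a run of letters, not evidence of binding.

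Genes that act with the channels were measured in the same way, in 4 lists of 37 genes, all found in the table and 33 tested. One had an unadjusted p under 0.05 (against 2.04% of all genes) and 0 an adjusted p under 0.05 by edgeR. The median log2 fold change was 0.07. In the list of 10 sodium channel partners, which holds the anchors Ank3 and Sptbn4 and the intracellular FGF proteins, log2 fold changes lay between -0.19 and 0.37. In the list of 15 calcium channel regulators, with calmodulins, RIM proteins and RGK GTPases, 13 were tested and lay between -1.41 and 0.68, or between -0.55 and 0.40 without WT replicate 1. The 4 genes of the sodium leak channel complex lay between -0.09 and 0.28, or between -0.19 and 0.05 without that library.

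Cacng5, a gamma subunit family member that acts mainly on AMPA receptors, was the 1 gene of these lists with an unadjusted p under 0.05. It had normalized counts of 376, 634 and 465 in WT and 362, 245 and 236 in Sgo1-/+, so that every WT library lay above every Sgo1-/+ library, though WT replicate 1 and Sgo1-/+ replicate 1 were close. The log2 fold change was -0.81 (95% interval -1.40 to -0.22, unadjusted p = 0.0146, adjusted p = 0.9999 by edgeR), and -0.97 without WT replicate 1. Without Sgo1-/+ replicate 3 its unadjusted p was 0.0536. The groups did not overlap in 2 of the 33 partner genes tested, Cacng5 and Unc79, beside 6.81% of all genes tested. The olfactory bulb markers were likewise higher in WT replicates 2 and 3 than in every Sgo1-/+ library, while in WT replicate 1 5 of the 7 lay below Sgo1-/+ replicate 1. Their part in the values of Cacng5 was not tested.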

How the data were processed

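RNA of 3 WT and 3 Sgo1-/+ mouse brains was sequenced as paired reads. The authors aligned the reads to mm10 in Strand NGS and deposited an estimated count per Ensembl gene and library; the labels' processing notes also name BWA and edgeR. The Ensembl release and the strand setting are not given in the sources used here. The authors also deposited log2 values, DESeq-normalized and centred on each gene's median, and their own comparison of the groups as a log2 difference, a signed score and a fold ratio. The log2 columns served only to check which columns form which group, and the authors' comparison was not used.

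Estimated counts were rounded and fitted with edgeR 4.0.16 in R 4.3.3 (TMM, default filter, quasi-likelihood test, no covariates, 16337 genes, Benjamini-Hochberg adjustment, threshold 0.05). The test was also run on counts simulated with no deviating library, so that check does not cover a library like WT replicate 1. Standard errors are the size of the log2 fold change divided by the square root of F. The study's methods used a moderated test on normalized values, run here as an alternative with limma 3.58.1 on log2 of DESeq-normalized counts plus 1. Other alternatives were DESeq2 1.42.0, its size factors, no filter, a minimum of 10 counts in all libraries, a term for sex, the replicate block and each library left out; females alone, Scn2a1 among the alpha subunits and the olfactory bulb list without Calb2 were added after seeing the data. Levels per length used merged exons of GENCODE M21 and, as an alternative, the longest transcript. The depth of 11123917 to 12505561 counts limits precision; a count of 0 allows up to 3, for counting error only. Libraries of a group differed by more than sampling noise. Each library is labelled as a separate mouse, and p-values measure the spread between these libraries, with WT replicate 1 among them.

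Of the 31 genes, 2 entered the fits and counts but are not reported here, and levels and shares were taken over the other 29. The members, partner lists and marker lists were chosen with earlier results of these data known. Marker and partner symbols were matched through Ensembl IDs, with 1 brain stem gene not matched. Values by library are given for members with an unadjusted p under 0.05 with all libraries or without WT replicate 1, the highest described member of each class, members with a library at least 2-fold above their median, partner genes with an unadjusted p under 0.05 and Sgo1. Scn4b, Scn2b, Cacna2d3 and Cacnb1 were added after their values were seen.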

Additional observations from a re-analysis of the deposited data

How the results depend on the processing

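The adjusted p of every channel gene tested stayed at or above 0.764 in every alternative fit, with 0 called in each, and leaving out each library gave 0 to 0 channel and 0 to 0 partner genes. At an unadjusted p under 0.05 the channel count of 0 became 0 to 3 when 1 library was left out and 4 in females alone (Cacna1c, Cacna1d, Cacna1h and Scn7a, lower in Sgo1-/+), while the count over all genes, 333, became 240 to 1040 with 1 library left out, 563 without the filter and 578 in females alone. The adjusted count over all genes, 0, became 3 with DESeq2, 0 to 1 with 1 library left out and 1 in females alone. The partner count of 1 became 2 with DESeq2, without the filter, with sex as a covariate and with the replicate block, and 1 to 4 with 1 library left out. The replicate numbers shared by the groups did not pair the samples, since the deviations of same-numbered libraries correlated at -0.146, 0.014 and -0.207; under the replicate block 280 of all genes had an unadjusted p under 0.05 and no channel gene did.

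Over the fits that left out 1 library the log2 fold change crossed 0 in these genes, with ranges of -0.10 to 0.59 for Cacna1e, -0.04 to 0.23 for Cacnb2, -0.17 to 0.39 for Cacna1b, -0.08 to 0.25 for Cacnb4, -0.20 to 0.54 for Scn3a, -0.61 to 0.14 for Scn9a, -0.19 to 0.52 for Cacna2d1, -0.59 to 0.08 for Cacna1c, -0.33 to 0.35 for Cacna2d4, -0.32 to 0.04 for Cacna1a, -0.05 to 0.63 for Scn3b, -0.34 to 0.07 for Cacna2d2, -1.51 to 3.32 for Scn10a, -0.23 to 0.22 for Cacna1i, -0.19 to 0.73 for Cacnb3, -0.34 to 0.41 for Cacna1h and -0.12 to 0.34 for Scn2a1. In females alone, the direction turned to -0.20 for Cacna1e, -0.06 for Cacnb2, -0.18 for Cacna1b, -0.04 for Cacnb4, -0.40 for Scn3a, -0.20 for Cacna2d1, 0.19 for Cacna2d4, 0.05 for Cacna1a, -0.08 for Scn3b, -0.26 for Cacna1i, -0.23 for Cacnb3, -0.36 for Cacna1h and -0.17 for Scn2a1. For Scn10a, limma gave 1.12, sex as a covariate 0.00 and the replicate block 0.47. The cause of these changes was not tested. With the longest transcript in place of merged exons these levels rose, by its construction, to 70 for Cacnb3, 33.2 for Scn8a, 28.6 for Cacna2d1 and 19 for Cacna1a, and Cacna2d3 then stood above Cacna2d1 at 32.4. With Scn2a1 in the class the share of Scn8a became 29.5% in place of 45.3%. Depth limits Scn4a, Scn11a and Cacna1f, which had at most 10.1 normalized counts in any library.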
